A study of Bos taurus with 2 samples.

Results

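The genes described here encode splicing factors and heterogeneous nuclear ribonucleoproteins (hnRNPs), the proteins that package new transcripts and remove their introns. They were taken as the non-control probes of a bovine expression array whose gene name starts with SNRP, SRSF, HNRNP, SF3A, SF3B, U2AF or PRPF. This gave 64 of the 32428 gene names on the array, read by 192 probes of 60 bases on 198 spots. The rule reads names and no measured values, but it was chosen with earlier results of these data known. As a check of the names, 63 of the 64 are current cattle gene symbols in RefSeq (assembly ARS-UCD2.0), and the remaining name, SF3B14, is an older symbol of SF3B6. SRSF10, a further serine and arginine rich factor, was not on the array under that name.

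The study compared the testis of crossbred bulls, which have a higher incidence of poor semen quality, with the testis of Zebu bulls. The crossbred group was 3 Holstein Friesian crossbred bulls and the Zebu group was 3 Tharparkar bulls. All animals were 24 months old, and 1 testis of each was removed by castration. RNA was combined in equal amounts within each group, so the spread between animals is not in the data, and each group is 1 array labelled with Cy3. With 1 array per group there is no replicate check, no test between the groups can be made and no p-value is given. Pieces of whole testis hold germ cells of all stages together with somatic cells, and in such bulk samples fewer cells of a type and less RNA per cell cannot be told apart.

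Every value below is a log2 signal relative to the 75th percentile of its own array, and every difference is crossbred minus Zebu. A difference of 1.5 or more in size (2.83-fold) was counted as higher or lower, the fold change limit of the study read on the log2 scale, and counts at a linear fold of 1.5 are given beside it. The only measured error is the spread between spots of 1 probe on an array, which for a difference had an SD of 0.34 over 5960 probes. Levels of different probes depend on their sequence and were not compared.

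Introns are removed by the spliceosome, a machine of small nuclear RNAs and proteins. SNRP genes encode the Sm ring and other proteins of the small nuclear ribonucleoproteins (snRNPs). SF3A, SF3B and U2AF subunits recognise the branch point and the 3′ splice site, and most PRPF genes encode proteins of the U4/U6 and U5 particles. SRSF proteins bind exons through an RNA recognition motif and recruit the machinery through a domain of repeated serine and arginine, whereas hnRNPs coat nascent RNA and often oppose exon inclusion. Testis is known for its large variety of spliced transcripts, and transcription stops while spermatids condense their chromatin.

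The probe sequences that carry the results are shown first. Each is printed 5′ to 3′ in the sense of the transcript, with its place on assembly HGSC Btau 3.1 as the files give it. Probes that may reach the end of a transcript are shown by 30 bases or fewer. The exon or untranslated region a probe lies in was not analysed here. In SRSF6 the capitals mark 11 codons that read alternately for serine and arginine in a frame without a stop codon. A run of at least 6 such codons was in 1 of the 192 member probes and in 5 of the 51279 probes of the array. In the windows of SRSF6, SRSF4 and SRSF3 they mark AATAAA, the usual signal for polyadenylation. AATAAA was searched on the printed strand and was in 22 of 192 member probes and in 8.35% of all probes, and such a match is a description and not a site in use. Sequences without capitals are shown because their spots differ within 1 gene (HNRNPF and PRPF8) or agree over a whole gene (PRPF39).
SRSF6, probe start 941, chr13:72853916-72853975, plus strand: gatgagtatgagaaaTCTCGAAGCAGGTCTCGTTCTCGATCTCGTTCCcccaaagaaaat
SRSF6, window of the probe at 3372, probe at chr13:72856539-72856598, plus strand: ctttattgcctcAATAAAatgttcactgag
SRSF4, window of the probe at 2204, probe at chr2:128568984-128569043, plus strand: ccattaaatttgAATAAAgactattttt
SRSF3, window of the probe at 907, probe at chr23:10806893-10806952, minus strand: taacatgatggaAATAAAaactggcaaaaa
HNRNPF, probe start 1292, chr28:12501258-12501317, minus strand: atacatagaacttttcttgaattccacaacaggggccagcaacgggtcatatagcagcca
HNRNPF, first 30 bases of the probe at 1955, probe at chr28:12500595-12500654, minus strand: ggaattggtgaggccttgacttaaaaactt
PRPF39, probe start 390, chr21:55293536-55293595, plus strand: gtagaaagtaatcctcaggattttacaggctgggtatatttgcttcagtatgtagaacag
PRPF8, probe start 6543, split over chr19:22845403-22846453, minus strand: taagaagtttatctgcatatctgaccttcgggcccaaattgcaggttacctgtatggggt
PRPF8, first 30 bases of the probe at 7322, probe at chr19:22844225-22844284, minus strand: ctgtgcttgtgatgttgttgacccctggtg

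The brightest probe of each of the 64 genes was detected on both arrays, that is, well above background by the scanner software, which held for 70.4% of all gene names. Of the 192 probes 187 were so on both arrays and 5 on neither, and these 5 were further probes of HNRNPH2, SNRPA1, SNRPC, SNRPD3 and SRSF2. Each gene is given below by its brightest probe unless another is named.

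The genes of splicing factors and hnRNPs differed little between crossbred and Zebu testis. The difference was under 0.5 in size in 53 of 64 genes (82.8%), against 52.2% of all gene names measured on both arrays. Among genes with a mean signal at or above 0 the shares under 0.5 were 83.9% of 62 members and 55.0% of 9315 genes. The SD of the differences was 0.40 over the members and 0.85 over all such genes. Within that narrow range the members lay slightly lower in crossbred testis, with a median of -0.20 against -0.04 for all. The difference was below 0 in 43 of 64 members (67.2%), and 52.3% of all gene names lay below 0. In 41 of the 64 genes the difference was within the SD between spots of 0.34, and in 23 it was beyond it. The share of all gene names within that SD was not computed, here or for the groups of names below.

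No member was higher in crossbred testis at 1.5 or more, where 7.12% of all 24751 detected gene names were, and 1 member, PRPF8, was lower, where 2.92% of all were. Those 24751 include genes dim on 1 array, which no member is. Among the 22842 gene names measured on both arrays 6.32% were higher and 1.74% lower, against 0% and 1.56% of the members. At a mean signal at or above 0 the lower shares were 0.74% of all and 1.61% of the members. At a linear fold of 1.5 the counts were 0 higher and 5 lower, and the shares over all detected genes were 21.4% higher and 22.2% lower. Over the gene names measured on both arrays these shares were 20.7% and 20.3%. The 5 were PRPF8, PRPF39, HNRNPL, SRSF9 and HNRNPH2. The value of PRPF8 rests on a spot in a dark patch of the crossbred array and is taken up with the other PRPF genes.

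**Figure D1:**
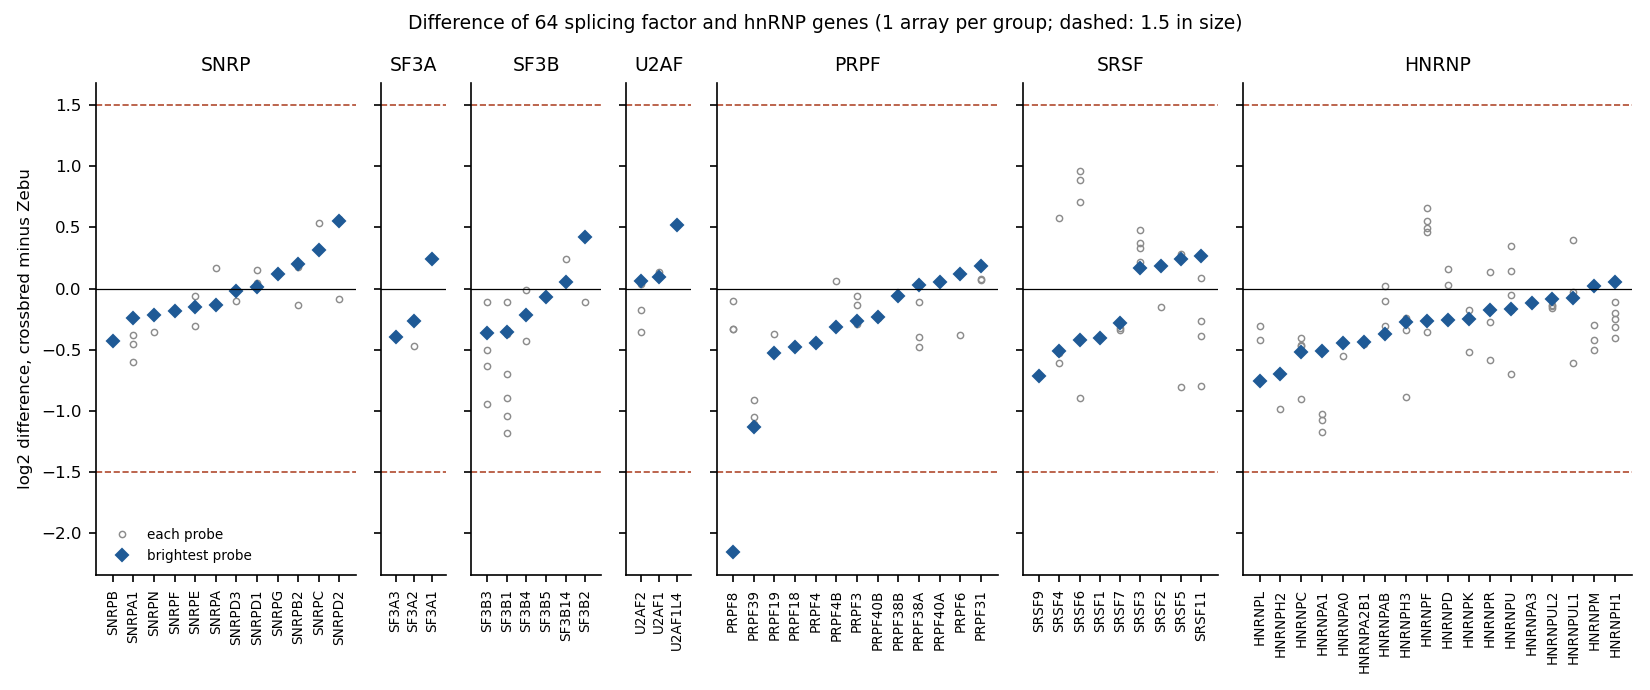
Log2 difference (crossbred minus Zebu, vertical axis) of the 64 genes in 7 groups of names, with blue diamonds for the brightest probe of a gene, open circles for each of its probes well above background and dashed lines at 1.5 in size. Most diamonds lie between -0.5 and 0.5, the HNRNP genes are below 0 in 16 of 18, and PRPF8 at -2.16 is the only one past a dashed line.

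**Figure D2:**
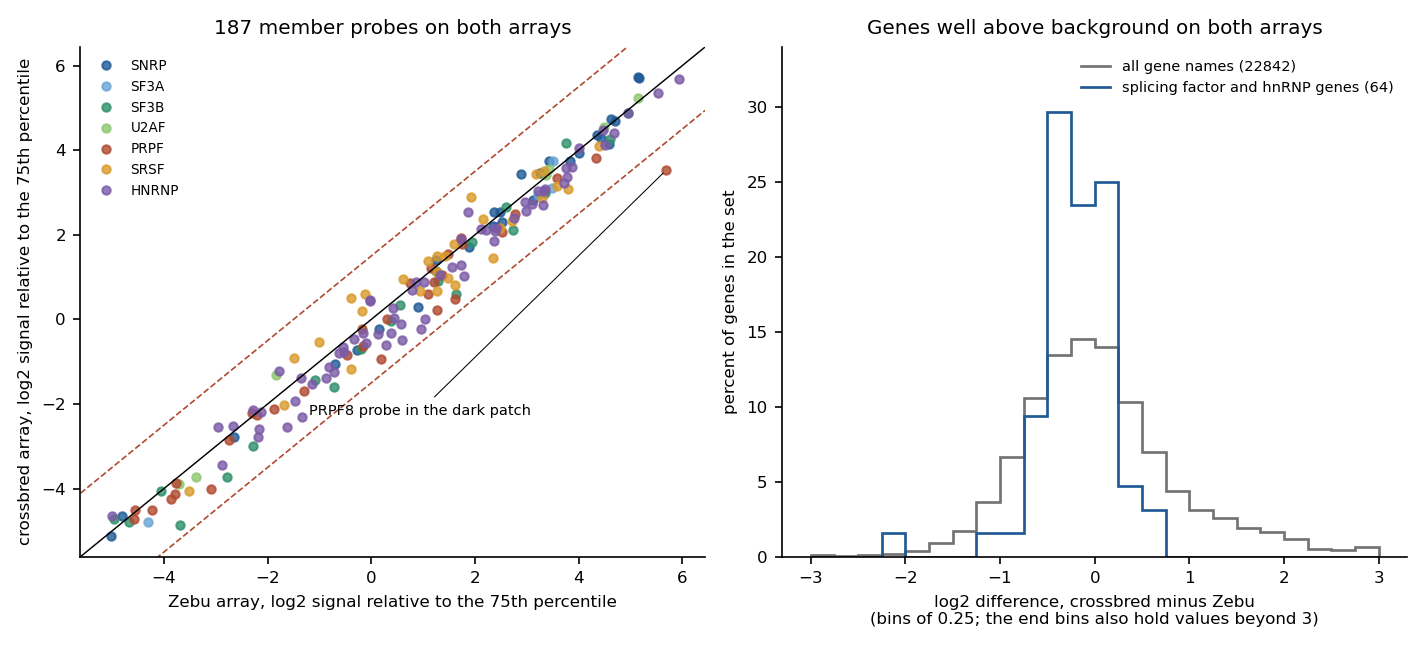
Left, the log2 signal of the 187 member probes on the Zebu array (horizontal) and the crossbred array (vertical), with the line of equal signal and dashed lines 1.5 above and below it. Right, the percent of genes in bins of the log2 difference, where the 64 members (blue, SD 0.40) form a narrower curve than the 22842 gene names measured on both (grey, SD 0.85).

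The 12 SNRP genes, which encode snRNP proteins, had a median of -0.08, with 7 genes below and 5 above 0 and 10 of 12 within the spot SD. The lowest was SNRPB, the SmB protein of the ring, at 4.15 in crossbred and 4.58 in Zebu testis, a difference of -0.43. Its relative SNRPN, which replaces SmB in some tissues, stood at 2.31 and 2.53, a difference of -0.22. SNRPD1, another ring protein, was at 4.36 and 4.35, a difference of 0.01. Of the proteins that belong to U1, SNRPA had a difference of -0.13, and SNRPC was higher in crossbred by 0.32 with signals of 3.75 and 3.44.

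SNRPD2, the ring protein SmD2, had the highest difference of all members. Its brightest probe read 5.72 in crossbred and 5.16 in Zebu testis, a difference of 0.55 that was the mean of 2 spots. A probe that overlaps it read 5.72 and 5.15, a difference of 0.57. A further probe, designed on another sequence record and upstream of these in the genome, was close to the noise floor on both arrays, at -5.11 and -5.03. The excess in crossbred testis is thus shown by 3 spots of overlapping sequence and by no independent probe. SNRPE, a small ring protein, is the only member with a spot in the bright patch of the crossbred array, where its signal was 3.94. That spot's difference of -0.06 was set beside -0.15 for an overlapping probe elsewhere, and the gap between them was 0.09.

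The branch point proteins were lower in most members, by small amounts. SF3A3 was the lowest of the 3 SF3A genes at -0.39 and SF3A1 the highest at 0.24. SF3A1 and SF3A3 each had 1 probe. The 6 SF3B genes had a median of -0.14. SF3B2 was highest at 0.42, with signals of 4.17 and 3.75, but its other probe, upstream, gave -0.11.

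SF3B1, the large subunit that clamps the branch point, had the most probes of any member, and all 8 were lower in crossbred testis. Their differences ranged from -1.18 to -0.11 with a mean of -0.62 ± 0.39 (SD over 8 probes, which are not replicates). The brightest, at base 4145 of the transcript, read 4.26 in crossbred and 4.61 in Zebu testis, a difference of -0.36. The 3 probes furthest downstream, at bases 4949, 5663 and 6119, gave -1.18, -0.89 and -1.04, and the 5 upstream of them lay between -0.70 and -0.11. The probe at 4949 was dim, at -4.87 and -3.69. SF3B3, a scaffold of the same complex, was also lower on all its 5 probes, with a mean of -0.51 ± 0.31 and with -0.36 on the brightest (2.99 and 3.35).

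The U2AF genes were the one group with no member below 0, although their median turned to -0.10 under quantile normalization. U2AF1, which reads the AG at the end of the intron, was at 5.24 and 5.15, a difference of 0.09. U2AF2, which binds the pyrimidine tract, was at 4.56 and 4.50, a difference of 0.06, and 2 of its 4 probes were below 0. U2AF1L4, a relative of U2AF1 measured by 1 probe, was dim at -1.31 and -1.83, a difference of 0.52.

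The 13 PRPF genes had a median of -0.26, with 9 below 0. PRPF31 and PRPF3, both proteins of the U4/U6 particle, differed by 0.19 (1.92 and 1.74) and by -0.26. The 3 probes of PRPF31 were all above 0 and the 5 of PRPF3 were all below it. PRPF6, which bridges U5 and U4/U6, was at 0.86 and 0.74, a difference of 0.12, and its upstream probe gave -0.38. PRPF19, the ubiquitin ligase of the complex named after it, was lower at 3.81 and 4.34, a difference of -0.53, and its other probe gave -0.37.

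PRPF8, the U5 protein at the catalytic core, was the only member past the threshold, and this value depends on 1 spot. Its brightest probe, at base 7322, read 3.53 in crossbred and 5.69 in Zebu testis, a difference of -2.16 (4.47-fold lower in crossbred). The spot lies in a dark patch of the crossbred array, where the median difference of 408 detected spots was -1.37 and 47.1% of them were lower by 1.5 or more. Outside the patches 2.69% of spots were, and the 18 spots nearest to this one had a median of -3.30. The other 3 probes of PRPF8 lie elsewhere and gave -0.33, -0.10 and -0.33, with signals at base 6543 of 0.89 and 1.21. Without the spots of the dark and the bright patch the difference of PRPF8 was -0.34, no longer past the threshold.

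PRPF39, a U1 protein that helps choose the 5′ splice site, was chosen after its values were seen because all its probes were lower by a like amount. Its 4 probes gave -0.91 at base 390, -1.11 at 2498, -1.05 at 2793 and -1.13 at 2933, a mean of -1.05 ± 0.10 (SD over 4 probes). The brightest read 0.48 on the crossbred and 1.61 on the Zebu array, 2.19-fold lower in crossbred. None of its spots lies in a patch. It was the only other member lower by 1 or more, and it did not reach 1.5. At a threshold of 1, 2 members were lower and 0 higher, where 2196 and 3173 of all 24751 detected gene names were.

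The 9 SRSF genes had a median of -0.28, yet split by gene into 5 below and 4 above 0. SRSF9, measured by 1 probe, was lowest at 3.08 and 3.79, a difference of -0.72. SRSF1, the prototype of the family, was also measured by 1 probe, at 2.88 and 3.28, a difference of -0.41. SRSF2 was higher by 0.19, and its other measured probe gave -0.15. SRSF11 was highest at 0.26, with signals of 3.44 and 3.18, but its 5 probes ranged from -0.80 to 0.26.

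SRSF3, a small factor that also links splicing to mRNA export, was the one SRSF gene higher on each of several probes. From base 183 to base 907 its 5 probes gave 0.48, 0.38, 0.33, 0.22 and 0.17, a mean of 0.32 ± 0.12. The probe at 907, whose AATAAA window is printed above, read 3.51 on the crossbred and 3.34 on the Zebu array. All 5 differences were in 1 direction and became smaller downstream.

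SRSF6, SRSF5 and SRSF4, factors of the same family with paired RNA recognition motifs, gave opposite answers from the 2 ends of their transcripts. These genes were chosen after their values were seen. The SRSF6 probe with the serine and arginine codons printed above read 2.88 in crossbred and 1.92 in Zebu testis, a difference of 0.96. The SRSF6 probe with AATAAA at base 3372 read 1.45 and 2.34, a difference of -0.89. Both overlapping probes further upstream, at 601 and 657, gave 0.71 and 0.89, and the probe at 1550, the brightest, gave -0.42.

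SRSF4 read -0.92 and -1.49 at base 410, a difference of 0.58, and was below 0 on its other 3 probes, with -0.53, -0.61 and -0.51. SRSF5 read 1.51 and 1.27 at base 287, a difference of 0.24, and 0.28 at 425. At base 1395 it read 0.81 and 1.62, a difference of -0.81 over 2 spots. In all 3 genes the probe furthest upstream was higher and the probe furthest downstream lower in crossbred testis, so the sign of the gene depends on the probe that is read. With the probe furthest upstream of each gene the median of the SRSF genes was 0.19 in place of -0.28, an alternative added after the data were seen.

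The 18 HNRNP genes had a median of -0.26, and 16 of them were lower in crossbred testis on their brightest probe. HNRNPL, which binds CA-rich RNA, was lowest at 1.03 and 1.79, a difference of -0.76, and its other 2 probes gave -0.42 and -0.30. HNRNPH1, a binder of G runs, was highest at 4.06 on the crossbred array and a difference of 0.05, although its other 5 probes lay between -0.40 and -0.11. HNRNPK, which binds C-rich RNA, was at 5.69 and 5.94, a difference of -0.25 with all 3 probes below 0. HNRNPU, a large nuclear matrix protein, was at 3.04 and 3.21, a difference of -0.17, but its 6 probes ranged from -0.70 to 0.35. HNRNPD, which binds AU-rich elements, was at 3.61 and 3.87, a difference of -0.26, and 2 of its 3 probes were above 0.

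The core hnRNPs of the A and C classes were lower on each of their probes. HNRNPA1, which binds exonic silencers, gave -1.08, -1.17, -1.03 and -0.51 at bases 556, 799, 861 and 1668, a mean of -0.95 ± 0.30. The probe at 1668, the brightest, read 3.21 in crossbred and 3.72 in Zebu testis. HNRNPA2B1, its close relative, was at 2.55 and 2.99, with differences of -0.44 and -0.45 on its 2 probes. HNRNPC, a binder of uridine tracts, had 5 probes between -0.90 and -0.40 and a mean of -0.55 ± 0.20. HNRNPH2 was lower by a mean of -0.84 over its 2 measured probes, with -0.12 and 0.58 on the brighter. No member sequence was on the array under another gene name, and binding by near-identical copies elsewhere in the genome was not tested.

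HNRNPF, a binder of G-rich RNA like HNRNPH1, again differed between the ends of its transcript. From base 440 to base 1292 its 4 probes gave 0.55, 0.50, 0.46 and 0.66, and at 1808 and 1955 they gave -0.36 and -0.27. The probe at 1292 read 2.53 on the crossbred and 1.87 on the Zebu array, and that at 1955, the brightest, read 4.41 and 4.68. The mean of all 6 was 0.26, opposite in sign to the value of the brightest.

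**Figure D3:**
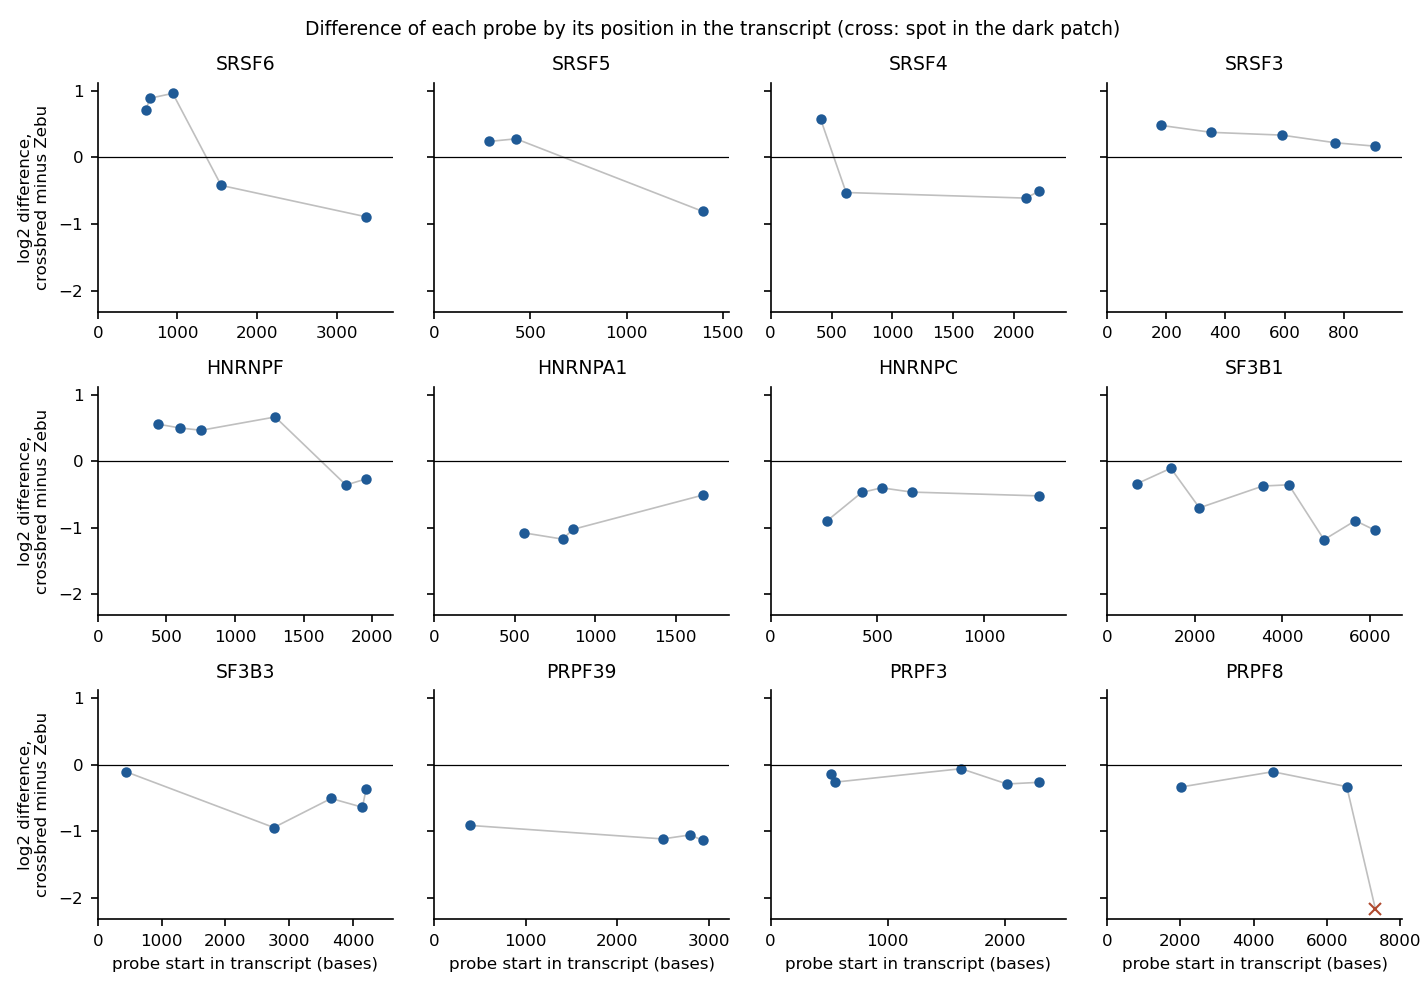
Log2 difference (crossbred minus Zebu, vertical axis) of each probe well above background against its start in the transcript in bases (horizontal axis), for 12 genes, with a cross for the PRPF8 spot in the dark patch. SRSF6, SRSF5, SRSF4 and HNRNPF pass from above to below 0, SRSF3 stays above 0 on 5 probes, and PRPF39 lies between -1.13 and -0.91 throughout.

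Over the members as a whole, probes of 1 gene often disagreed in sign. Of the 50 genes with several measured probes 23 were below 0 on all, 6 were above 0 on all and 21 had both signs. The same shares over all genes of the array were not computed, so these counts only describe the members. The SD between probes of 1 gene was 0.35, and 0.32 without the spots in the patches. Probes of 1 transcript that overlap, with starts under 60 bases apart, had a median gap of 0.09 and a largest gap of 0.28 over 13 pairs. A median gap and an SD are unlike measures, so they were not compared. The length of the overlap varied, and the pair with the largest gap, SF3B3 at 4149 and 4208, meets only at its edge.

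The position of the probes was examined after the values were seen, over transcripts with measured probes at least 300 bases apart. The downstream probe was lower than the upstream probe in 25 of 42 member genes (59.5%), close to 58.4% of 6230 transcripts on the array, so this direction is no property of the members. The signs of the ends were opposite in 17 of 42 (40.5%), against 29.9% of all transcripts, with 13 from above to below 0 and 4 the other way. Over all transcripts these shares were 21.0% and 8.91%. Of the 7 SRSF genes with such a pair 6 were lower downstream and 5 went from above to below 0, a group singled out after its values were seen, while 7 of 16 HNRNP genes were lower downstream. Shifts beyond the spot SD for a pair of probes (0.49) were in 13 of 42 members (31.0%) and in 36.4% of all transcripts, so large shifts were not more frequent among the members. From the first to the last probe the difference moved by -1.60 in SRSF6, -1.09 in SRSF4, -1.05 in SRSF5, -1.01 in HNRNPUL1 and -0.82 in HNRNPF. That of PRPF8, -1.83, rests on the spot in the dark patch, and without it 24 of 41 were lower downstream. The largest shifts the other way were 0.65 in HNRNPH3 and 0.57 in HNRNPA1. Labelling started at the poly(A) tail of the RNA in both groups, and the part of RNA length or of transcript ends in these shifts was not tested.

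Other genes of splicing and its regulation, outside the name rule, had the same median but a wider spread. Of 154 such genes on the array in 7 lists all but KHDRBS2 were detected, their median was -0.20, and 1 was higher and 1 lower at 1.5 or more. At a linear fold of 1.5 the counts were 11 higher and 29 lower, and 65.6% of the 151 genes measured on both arrays differed by under 0.5. The median was -0.05 for the SMN complex and LSM proteins (20 genes), which assemble snRNPs. It was -0.19 for other U1, U5 and tri-snRNP proteins (25 genes) and -0.42 for partners at the branch point and the 3′ splice site (13 genes). It was -0.14 for the NTC, catalytic and release factors (25 genes), -0.29 for SR-related and exon junction proteins (18 genes) and -0.48 for the kinases of SR proteins (9 genes). The kinases went both ways, with 5 below and 4 above 0, and their summed signal was 108 in crossbred and 75.7 in Zebu testis. Such a sum weighs bright probes most. SRPK2, the brightest of these kinases, stood at 5.75 and 4.71, a difference of 1.04, so the sum does not describe the kinases as a group. None of the genes in these 6 lists was past 1.5 on the log2 scale on its brightest probe. The median of the other probes was past it in SUGP1 (1.69, against 1.16 on the brightest) and in USP39 (-1.78, against -0.32). At a linear fold of 1.5 the higher and lower genes were 3 and 1, 1 and 4, 2 and 3, 2 and 2, 0 and 5, and 1 and 4 in the order given. Among 43 detected regulators of alternative splicing the median was -0.30, with 2 higher and 10 lower at a linear fold of 1.5. TIAL1, which binds U-rich RNA near 5′ splice sites, was lower in crossbred at 1.06 and 3.09, a difference of -2.02 on its only probe. ELAVL4, a neuronal RNA-binding protein, was higher by at least 2.10, but it was well above background only on the crossbred array and its spot lies in the bright patch.

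The medians of the germ cell, Sertoli, Leydig and peritubular markers lay further from 0 than that of the splicing genes, and those of the endothelial and blood cell markers lay closer to 0. All 15 spermatid markers were higher in crossbred testis, 11 of them past 1.5, with a median of 1.74 and a summed signal of 696 against 330 in units of the 75th percentile. All 12 spermatocyte markers on the array were above 0, with a median of 0.41 and sums of 142 and 107. Of 12 detected spermatogonial markers 10 were below 0, with a median of -0.61 and sums of 36.3 and 51.8. The medians were -0.58 for 11 detected Sertoli cell markers (159 and 246), -0.51 for 10 Leydig cell markers (99.7 and 146) and -0.77 for 8 peritubular markers (35 and 59.2). The 11 Sertoli genes include SOX10, which stands in place of SOX9 of the planned list and is not a Sertoli cell marker. SOX10 was well above background only on the crossbred array, where it was higher by at least 1.13, so it raises that median. LIN28A of the spermatogonial list and INHBB and SOX8 of the Sertoli list were not well above background on either array. The medians were 0.08 for 9 endothelial, 0.06 for 8 macrophage, -0.01 for 9 T and B cell and 0.09 for 3 detected red blood cell markers, whose sums were all under 30. ALAS2, HBB and SLC4A1 of the red blood cell list were not well above background. The part of these markers in the values of the splicing genes was not tested.

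**Figure D4:**
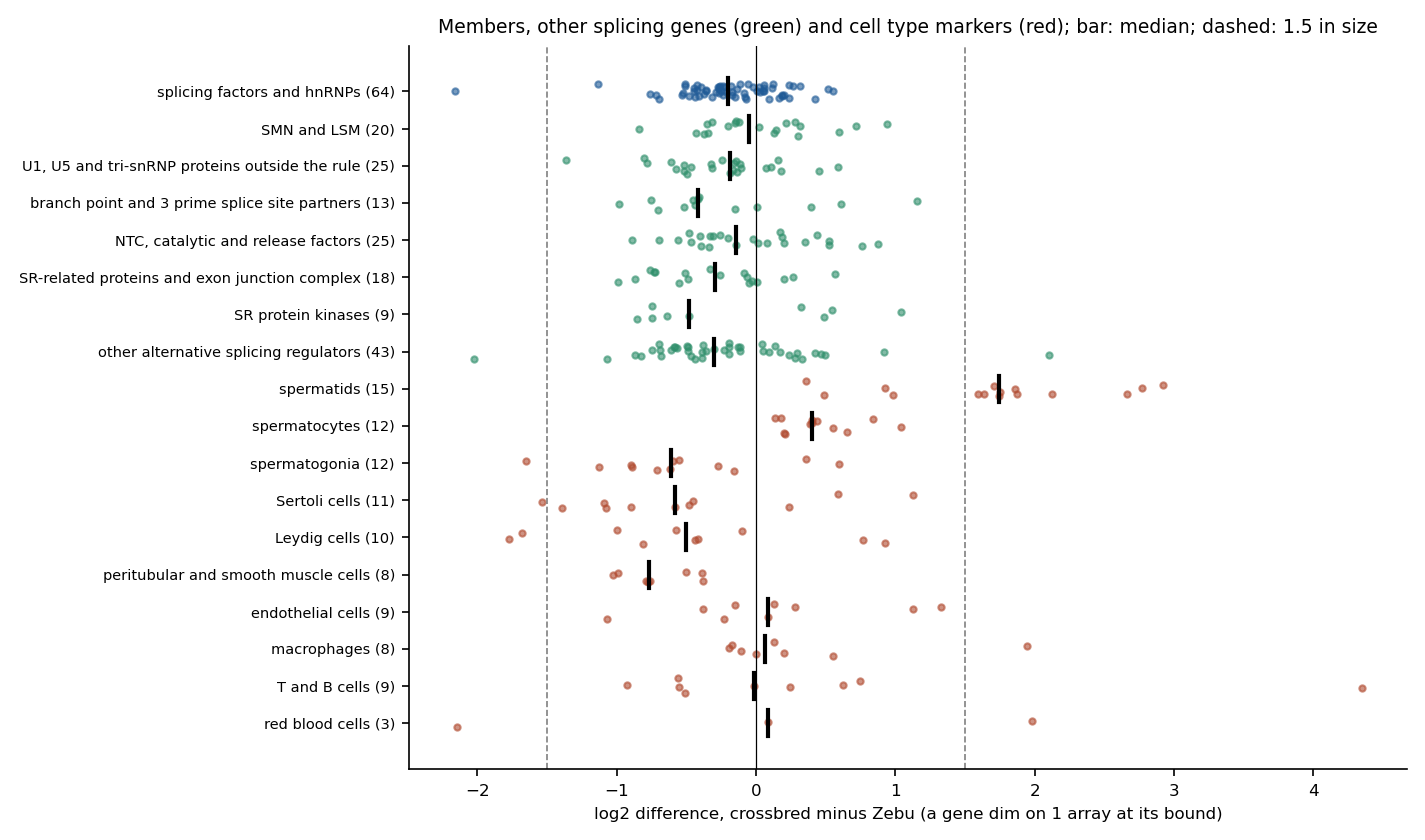
Log2 difference (crossbred minus Zebu, horizontal axis) of the 64 members (blue), of 7 lists of other splicing genes (green) and of 10 lists of cell type markers (red), with a black bar at each median and the number of detected genes in brackets. The members have a median of -0.20 and the spermatid markers of 1.74, with all 15 to the right of 0.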

How the data were processed

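RNA of 3 bulls per group was pooled, primed with oligo dT, labelled with Cy3 and hybridised to 1 array per group on the same slide. The authors deposited the scanner software's (Agilent Feature Extraction 11.5.1.1, from the submitters' processing notes, which also name HGSC Btau 3.1) processed signal intensity, per the file headers background-subtracted and detrended but not normalized between arrays, and its log2 values shifted by the 75th percentile, used as an alternative. Here spots of the same probe were averaged as log2 processed signal and shifted by the 75th percentile over non-control probes, a signal of 1176 (crossbred) and 1233 (Zebu). Of all spots 72.0% and 74.3% were well above background, none was saturated, and 13 outlier spots were left out. The number of arrays limits the precision.

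A gene was read from its brightest probe. For a gene dim on 1 array the value was given as a bound, but the counts of higher and lower genes used its measured difference. Such a gene can be counted although its bound is under the threshold. Genes named are those past 1.5, the highest and lowest of each group of names, genes with a spot in a patch, the 6 with the most probes and a list of textbook members, and others are said to be chosen after their values were seen. These are PRPF39, SRSF4, SRSF5, SRSF6, HNRNPH2, HNRNPH3 and HNRNPUL1. The members, lists and alternatives were chosen with earlier results of these data known. The steps were tested on simulated data (Python 3.11.15, numpy 2.4.6, pandas 2.3.3, scipy 1.17.1, R 4.3.3, limma 3.58.1 for normexp with an offset of 50). One probe sequence is not reported here.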

Additional observations from a re-analysis of the deposited data

How the results depend on the processing

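The count of lower members was the least stable value. It was 1 as reported and 0 with the mean of all probes, without the patch spots, without spots past 1.5 that had at least 2 of 6 adjacent spots past it in the same direction, and with the probe furthest upstream of each gene. It was 2 at a threshold of 1 and 5 at a linear fold of 1.5, where 2196 and 5504 of all 24751 detected gene names were lower. PRPF8 was -0.34 without the patch spots, -0.33 without clustered spots and -0.73 as a mean of all probes. The SRSF median was 0.19 with the probe furthest upstream, a choice made after the data were seen. The median of all members ranged from -0.29 to -0.16 over 11 other settings and was -0.11 with the probe furthest upstream. The 11 included normexp, quantile normalization, other shifts and the authors' log2 values. The SNRP median ranged from -0.21 to 0.04 and the U2AF median from -0.10 to 0.11, so these passed 0, while the other groups stayed below it over the same 11. With normexp 1030 of all gene names were higher and 169 lower, against 1762 and 722 as reported, and the member counts were the same. Values were compared with the spot SD of 0.34, which is larger than the medians themselves, so it shows little about their stability. By it 18 values of single genes moved.

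The authors' log2 values differed from those used here by at most 0.0037 in the difference of a member probe. Their column medians were -2.997 (crossbred) and -3.006 (Zebu). No paired analysis was possible because each group is 1 array of pooled RNA. Signal over background limits the 5 dim probes and those near the noise floor, and the number of arrays limits every value.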
